A study of Mus musculus with 8 samples.

Results

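The 7 genes of ZBP1-driven cell death, Zbp1, Ripk1, Ripk3, Mlkl, Casp8, Cflar and Fadd, were followed in mouse liver tumors 3 h after a dose of a nanoparticle TLR7 agonist. They were chosen by gene symbol as the sensor, kinases, executioner and brakes of necroptosis, and all 7 were among the 55536 genes counted. HCA-1 cells, a mouse hepatocellular carcinoma (HCC) line, were implanted in the liver of male C3H mice, and on day 17 the mice of the IMQNP group received 1 intravenous dose of PFSUV-IMQ at 4 mg/kg. PFSUV-IMQ is imiquimod, a small-molecule TLR7 agonist, carried in phospholipid-free small unilamellar vesicles. The Control group was given saline according to the study's methods, although a figure legend of the study calls it untreated. The mice were 6 to 8 weeks old by the labels, and the study's methods give a younger age. Each group had 4 tumors, numbered 1, 3, 4 and 5 in Control and 1, 2, 3 and 4 in IMQNP, and RNA was sequenced from whole tumors. No empty-vesicle or free-imiquimod tumor was analysed here, so imiquimod and its carrier cannot be told apart. A tumor of an implanted line is a model of a single line in a host with a normal immune system, and each library mixes tumor, liver and immune cells.

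Necroptosis is a lytic form of cell death that releases the contents of the cell and can alert the immune system. ZBP1 binds Z-form RNA or DNA through its Z-alpha domains and recruits the kinases RIPK3 and RIPK1 through RHIM motifs, after which RIPK3 phosphorylates MLKL, which breaches the plasma membrane. The same platform can take in FADD and caspase-8 and end in apoptosis instead, and the caspase-8 heterodimer with cFLIP, the product of Cflar, cuts RIPK1 and RIPK3 and holds necroptosis back. Zbp1 and Mlkl are known interferon-stimulated genes, and ADAR1, another Z-RNA binding protein, limits the RNA that ZBP1 can sense.

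Totals per tumor were 16883911 to 27687756 counts in Control and 17008151 to 18527613 in IMQNP. Values are CPM, the reads of a gene relative to the library total, after TMM normalization, which corrects that total for differences in RNA composition, and 3 counts correspond to 0.105 to 0.21 CPM, a limit that covers counting error only. The least abundant member, Ripk3, had at least 134 counts in every tumor, so none was near this limit. A gene counted as called when its p in edgeR's quasi-likelihood test, adjusted by Benjamini-Hochberg over the 15998 genes tested, was under 0.05. Markers of hepatocytes and HCC were read together: Krt18 averaged 886 CPM in Control and 908 in IMQNP, whereas Afp averaged 5.46 and 4.79 CPM. Alb spanned 2938 to 22450 CPM in Control and 4259 to 22740 CPM in IMQNP. As each library mixes tumor and liver cells, this marker list cannot tell the line from liver. All 8 hepatocyte and HCC markers were detected in every tumor, and their summed level spanned 6289 to 32240 CPM in Control and 8016 to 32670 CPM in IMQNP. IMQNP replicate 2 had the highest value among all 8 tumors for 6 of the 7 members, and the highest value of its group for 344 of the 394 genes called higher (87.3%) against 34.8% of all tested genes. It also had the highest summed level of hepatocyte, lymphoid, neutrophil and plasmacytoid dendritic cell markers of all 8 tumors, so the log2 fold change of each member is given with and without it.

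Of the 7 members, Zbp1 and Mlkl were called higher in IMQNP and none was called lower. Across all tested genes 394 were called higher, or 2.46%, and 35 lower, or 0.219%. The 2 members also passed a limit of more than 2-fold, which 362 genes or 2.26% passed. In 4 members, Zbp1, Mlkl, Cflar and Casp8, every IMQNP tumor lay above every Control tumor, a pattern of 6.00% of all tested genes, and in no member did every IMQNP tumor lie below, a pattern of 3.28%. The median log2 fold change of the 7 members was 0.59, and that of all tested genes was -0.03. The sensor and the executioner were thus the called members. The kinases between them, Ripk1 and Ripk3, were not called, nor were Casp8, Cflar and Fadd.

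**Figure D1:**
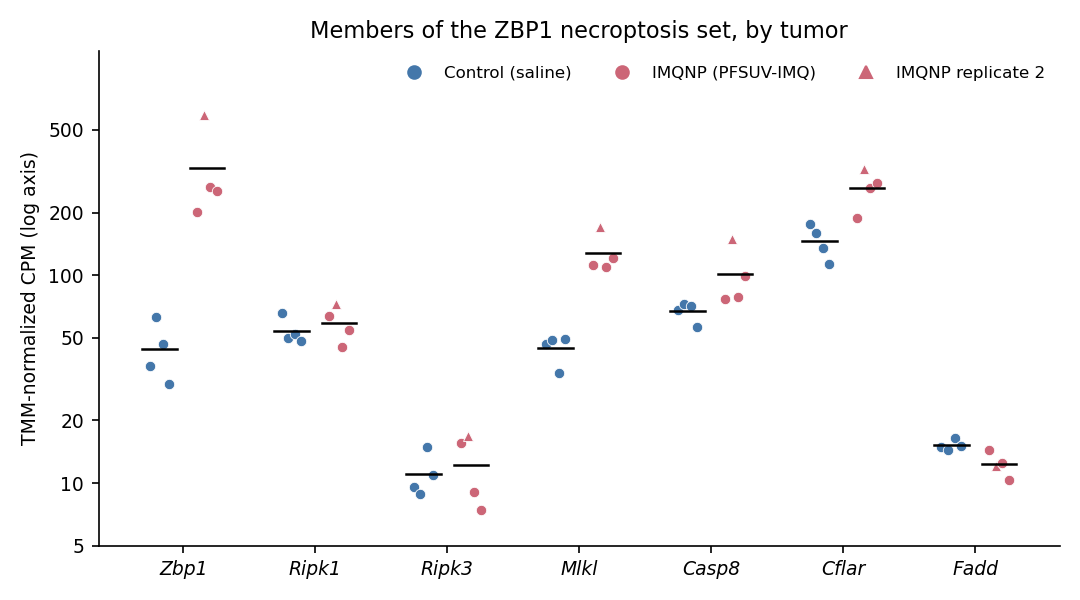
TMM-normalized CPM of the 7 members (log axis) in each tumor, with Control in blue, IMQNP in red, IMQNP replicate 2 as a triangle and the group mean as a black line. Zbp1 and Mlkl separated the groups most widely, at 44.05 and 44.7 CPM in Control against 327 and 128 CPM in IMQNP, while Ripk1, Ripk3 and Fadd overlapped.

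Zbp1, the cytosolic sensor of Z-form nucleic acids (chr2:173206612-173218923, minus strand of GRCm38, the build of all coordinates given here), had the largest change. Its level was 36.7, 62.7, 46.8 and 30.0 CPM in Control replicates 1, 3, 4 and 5. It was 200.2, 589.8, 264 and 253 CPM in IMQNP replicates 1 to 4. The lowest IMQNP tumor thus lay above 3 times the highest Control tumor, and IMQNP replicate 2 stood apart at 2.33 times the median of the other 3. Means were 44.05 ± 14.2 CPM in Control and 327 ± 178 CPM in IMQNP (SD, n = 4 each). On the log2 scale the difference was 2.89 with a standard error of 0.39 (adjusted p = 0.00424 in edgeR's quasi-likelihood test), a 7.41-fold difference with a 95% confidence interval of 4.06 to 13.5. By size of log2 fold change Zbp1 ranked 102 among 15998 genes. Without IMQNP replicate 2 the log2 fold change was 2.42 with an adjusted p of 0.00115 in edgeR's quasi-likelihood test, and Zbp1 was called with each of the 8 tumors left out in turn (log2 fold change 2.42 to 3.11).

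Mlkl, the pseudokinase that executes necroptosis (chr8:111311797-111338177, minus strand), was the other called member. Its level was 46.8, 48.9, 33.7 and 49.2 CPM in Control replicates 1, 3, 4 and 5 and 112, 171, 109.7 and 120.5 CPM in IMQNP replicates 1 to 4. All IMQNP tumors lay more than 2-fold above all Control tumors, with Control replicate 4 low in its group. The means were 44.7 ± 7.39 and 128 ± 28.8 CPM (SD, n = 4 each). They differed by 1.52 on the log2 scale with a standard error of 0.20 (adjusted p = 0.00413 in edgeR's quasi-likelihood test), a fold of 2.87 with a 95% confidence interval of 2.1 to 3.93. It ranked 434 by log2 fold change, and it was called with each tumor left out in turn (log2 fold change 1.33 to 1.59, the lowest without IMQNP replicate 2).

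The kinases that link the sensor to the executioner were not called. Ripk1, the kinase and scaffold of the death receptor complex (chr13:34002363-34037147, plus strand), had 65.7, 50.1, 51.9 and 48.1 CPM in Control replicates 1, 3, 4 and 5 and 63.8, 73.0, 45.1 and 54.3 CPM in IMQNP replicates 1 to 4. The groups overlapped, with both the highest and the lowest tumor in IMQNP, and the log2 fold change was 0.13 (95% confidence interval -0.29 to 0.55, adjusted p = 0.854 in edgeR's quasi-likelihood test). Ripk3, the kinase that activates MLKL (chr14:55784995-55788865, minus strand), had 9.59, 8.89, 15.0 and 11.0 CPM in Control and 15.6, 16.8, 9.09 and 7.39 CPM in IMQNP in the same order of replicates. IMQNP replicates 1 and 2 lay above all Control tumors and IMQNP replicate 4 below all of them, and the log2 fold change was 0.14 (95% confidence interval -0.54 to 0.82, adjusted p = 0.919 in edgeR's quasi-likelihood test). For Ripk3 the interval thus left room for a fold between 0.686 and 1.76, and for Ripk1 between 0.819 and 1.46. The sign of either change turned with a scaling by library totals alone, to -0.02 for each gene, and without IMQNP replicate 2, to -0.01 for Ripk1 and -0.07 for Ripk3, and that of Ripk3 also without IMQNP replicate 1, to -0.01. Of the exon bases of Ripk1, 9.01% lie under Gm17084, which had no count in any tumor, and the abundant Serpinb6a on the opposite strand, at 839 CPM in Control and 830.2 CPM in IMQNP. The strand setting of the counting is not given in the sources used here, so reads of the overlap cannot be assigned to either gene.

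Among the brakes and the adaptor, Cflar and Casp8 had separate groups without a call, and Fadd did not. Cflar, which encodes the caspase-8 regulator cFLIP (chr1:58711508-58758884, plus strand), had 176, 159, 135 and 113 CPM in Control replicates 1, 3, 4 and 5 and 188, 325, 263 and 277 CPM in IMQNP replicates 1 to 4. Its lowest IMQNP tumor, replicate 1, was just above its highest Control tumor. The log2 fold change was 0.85 (standard error 0.22, 95% confidence interval 0.37 to 1.33, adjusted p = 0.0839 in edgeR's quasi-likelihood test). Cflar was called by edgeR's exact test (adjusted p = 0.0302) and by the DESeq2 Wald test (adjusted p = 0.0139), and without IMQNP replicate 1 by edgeR's quasi-likelihood test (log2 fold change 0.98, adjusted p = 0.0444). Adjusted p ranged from 0.0139 to 0.153 over the other settings and from 0.0444 to 0.227 over the fits without a tumor. Without IMQNP replicate 2 the log2 fold change was 0.71 (adjusted p = 0.168 in edgeR's quasi-likelihood test).

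Casp8, the initiator caspase that restrains necroptosis (chr1:58795374-58847503, plus strand), lies 36489 bases downstream of Cflar with 0 protein-coding genes between them. It had 67.9, 72.4, 71.4 and 56.5 CPM in Control replicates 1, 3, 4 and 5 and 77.0, 149, 78.4 and 99.0 CPM in IMQNP replicates 1 to 4. The groups did not overlap, but IMQNP replicates 1 and 3 were close to the highest Control tumor, and the log2 fold change of 0.59 was not called (95% confidence interval 0.08 to 1.10, adjusted p = 0.295 in edgeR's quasi-likelihood test). It was 0.32 without IMQNP replicate 2. Fadd, the adaptor that binds caspase-8 to death receptors (chr7:144577318-144582463, minus strand), was the only member with a negative value. It had 15.0, 14.4, 16.5 and 15.1 CPM in Control and 14.5, 12.02, 12.6 and 10.4 CPM in IMQNP, in the same order of replicates. IMQNP replicate 1 lay within the Control range and the other 3 below it, and the log2 fold change was -0.30 (95% confidence interval -0.68 to 0.07, adjusted p = 0.517 in edgeR's quasi-likelihood test) and -0.31 without IMQNP replicate 2. Faddos, on the opposite strand over 6.12% of the exon bases of Fadd, had at most 8 counts in a tumor. Words of 50 bases were taken from the longest annotated transcript of each gene. Of these, 11.6% in Cflar, 7.19% in Ripk1, 5.05% in Casp8 and 1.48% in Fadd occur in other genes too. None of those of Zbp1, Mlkl and Ripk3 do. The counts of Cflar, Ripk1, Casp8 and Fadd may thus hold or lack reads that the counting could not place.

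**Figure D2:**
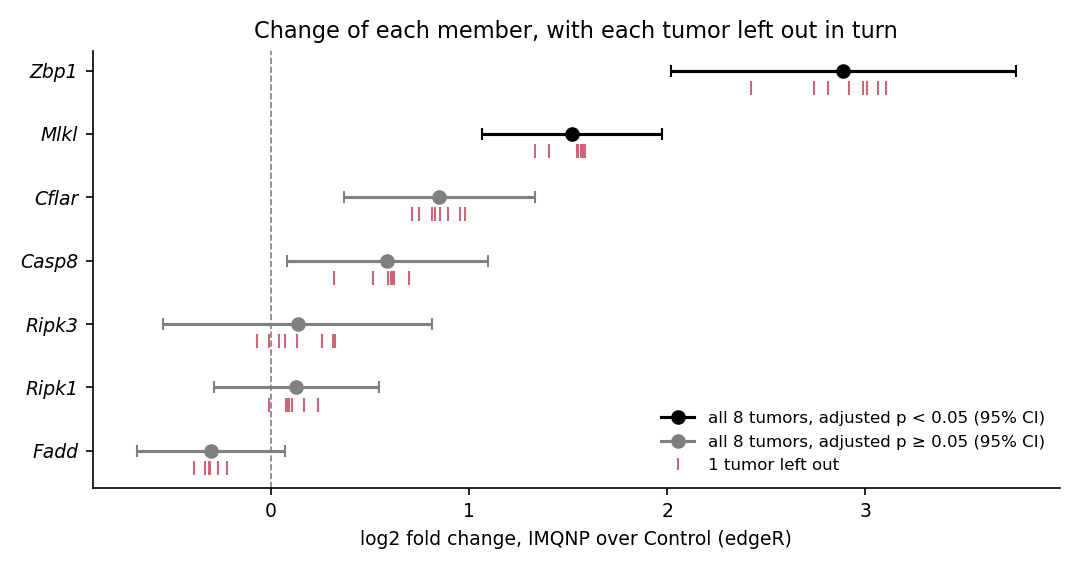
Log2 fold change of each member, IMQNP over Control, from edgeR's quasi-likelihood test with its 95% confidence interval (black where adjusted p was under 0.05, grey otherwise) and, as red ticks below, the value with each of the 8 tumors left out. Zbp1 stayed between 2.42 and 3.11 and Mlkl between 1.33 and 1.59, whereas the ticks of Ripk1 and Ripk3 fell on both sides of 0.

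To compare genes with each other, CPM were divided by the length of the annotated exons in kilobases. In Control the order of mean CPM per kilobase was Casp8 (23.2 ± 2.52, SD, n = 4), Mlkl (19.4 ± 3.21), Zbp1 (12.5 ± 4.03), Cflar (11.5 ± 2.17), Ripk1 (6.47 ± 0.958), Ripk3 (4.85 ± 1.19) and Fadd (3.9 ± 0.230). The ranges of neighbours in this order overlapped except between Cflar and Ripk1. In IMQNP the order was Zbp1 (92.6 ± 50.3), Mlkl (55.6 ± 12.5), Casp8 (34.9 ± 11.6), Cflar (20.8 ± 4.49), Ripk1 (7.07 ± 1.45), Ripk3 (5.33 ± 2.04) and Fadd (3.16 ± 0.432). Here the ranges separated Casp8 from Cflar and Cflar from Ripk1, and the full order held within each of the 4 IMQNP tumors. Zbp1 moved from the third or the fourth place in each Control tumor to the first in each IMQNP tumor. Exons of all annotated transcripts of a gene were joined, to 12669 bases for Cflar, so a level per kilobase is a low estimate where a shorter transcript is used.

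As a share of the summed length-scaled level of the 7 genes, Zbp1 made up 11.7 to 19.7% in Control and 34.4 to 49.5% in IMQNP. The share of Mlkl overlapped between the groups, at 18.2 to 29.4% and 22.0 to 29.4%. Casp8 accounted for 26.9 to 30.8% of the sum in Control and 14.8 to 17.8% in IMQNP, although its own level was not lower. Ripk1, Ripk3 and Fadd had mean shares of 7.93, 6.0 and 4.81% in Control and 3.39, 2.54 and 1.57% in IMQNP. The 7-gene sum itself was 72.8 to 90.2 CPM per kilobase in Control and 165 to 338 in IMQNP.

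**Figure D3:**
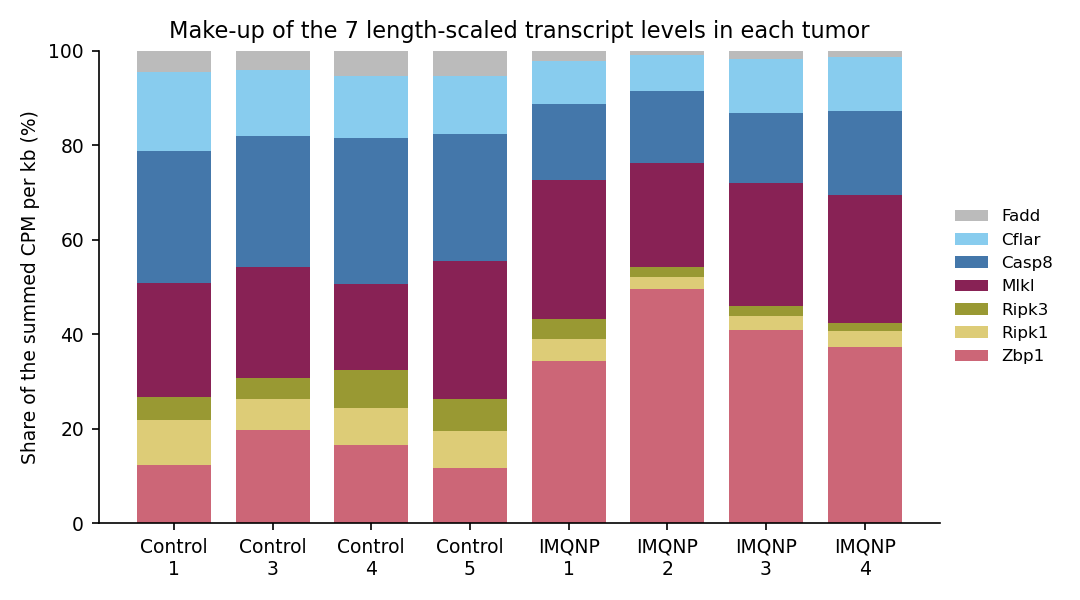
Share of each member in the summed CPM per kilobase of the 7 genes (stacked bars, percent) in each of the 4 Control and 4 IMQNP tumors. The Zbp1 segment at the bottom reached 34.4 to 49.5% of each IMQNP bar against 11.7 to 19.7% of each Control bar, and the Casp8 segment was smaller in IMQNP.

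The balance between members of successive or opposing roles was compared within each tumor as a log2 ratio of CPM, with exact two-sided permutation tests over 70 groupings of the tumors and adjustment over 4 ratios. Mlkl over Ripk3, the executioner against its kinase, was 2.29, 2.46, 1.17 and 2.17 in Control replicates 1, 3, 4 and 5 and 2.84, 3.35, 3.59 and 4.03 in IMQNP replicates 1 to 4. The ranges did not overlap, and the means of 2.02 ± 0.58 and 3.45 ± 0.50 (SD, n = 4 each) differed by 1.43 with an exact permutation p of 0.0286, the smallest that 4 against 4 tumors can give, and 0.114 after adjustment. Without Control replicate 4, which had a high Ripk3 and a low Mlkl, the difference was 1.15 with an exact permutation p of 0.0571. Zbp1 over Adar, the sensor against the enzyme that edits double-stranded RNA, was -0.34, 0.66, 0.34 and -0.33 in Control and 0.36, 1.42, 0.99 and 0.84 in IMQNP. These ranges overlapped, and the difference of 0.82 had an exact permutation p of 0.0571 (0.114 adjusted). Cflar over Casp8, the brake against its partner, differed by 0.30 (exact permutation p = 0.143, adjusted 0.191), and Ripk3 over Ripk1 by -0.04 (exact permutation p = 0.943). No ratio passed 0.05 after adjustment, and with 4 ratios and 70 groupings the smallest adjusted p that a single ratio alone could reach is 0.114.

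**Figure D4:**
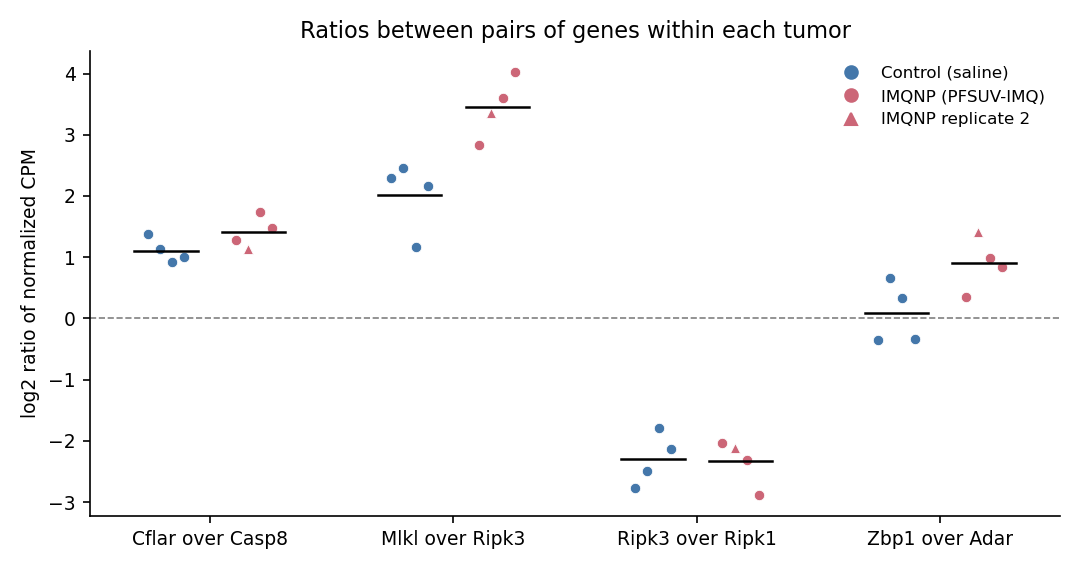
Log2 ratio of normalized CPM between pairs of genes within each tumor, with Control in blue, IMQNP in red, IMQNP replicate 2 as a triangle and the group mean as a black line. Mlkl over Ripk3 was the ratio without overlap, at 1.17 to 2.46 in Control and 2.84 to 4.03 in IMQNP.

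Promoters of 6 of the 7 members (all but Zbp1) were matched in a RefSeq table, as 7 windows of GRCm38.p6 that run from 250 bases before to 50 bases after a transcript start. They were searched on both strands for the core of the interferon-stimulated response element, a DNA element of type I interferon responses, written GAAANNGAAA, and for the gamma-activated site, an element of interferon gamma responses, written TTCNNNGAA. The first is held by 3.44% and the second by 8.3% of the 32851 promoter windows of the same length. The third pattern, with a 1-base gap, GAAANGAAA, was added after the sequences were seen and is held by 3.17%. The windows are shown with matches in capitals, each 5′ to 3′ on the strand of its gene: those of Mlkl, Cflar and Casp8, since the groups of these genes did not overlap, and the downstream of the 2 windows of Ripk1, since it held the most matches while its gene was not called.
Mlkl, chr8:111338156-111338455, minus strand: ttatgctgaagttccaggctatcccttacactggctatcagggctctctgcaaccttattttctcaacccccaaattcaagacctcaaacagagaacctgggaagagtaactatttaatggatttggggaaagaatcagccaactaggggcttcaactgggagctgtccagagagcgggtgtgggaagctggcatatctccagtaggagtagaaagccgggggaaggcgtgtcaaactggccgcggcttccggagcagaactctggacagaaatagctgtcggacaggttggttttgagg
Cflar, chr1:58711241-58711540, plus strand: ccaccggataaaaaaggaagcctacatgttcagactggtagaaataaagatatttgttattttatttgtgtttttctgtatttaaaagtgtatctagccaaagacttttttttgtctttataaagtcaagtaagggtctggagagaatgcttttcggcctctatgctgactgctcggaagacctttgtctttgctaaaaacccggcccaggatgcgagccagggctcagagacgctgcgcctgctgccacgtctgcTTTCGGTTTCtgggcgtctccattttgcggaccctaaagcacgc
Casp8, chr1:58802252-58802551, plus strand: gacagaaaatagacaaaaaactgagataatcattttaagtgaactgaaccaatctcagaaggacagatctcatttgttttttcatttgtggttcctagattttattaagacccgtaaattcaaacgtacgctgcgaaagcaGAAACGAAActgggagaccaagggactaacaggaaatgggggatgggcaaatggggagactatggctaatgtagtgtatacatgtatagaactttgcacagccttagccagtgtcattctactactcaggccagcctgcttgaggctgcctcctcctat
Ripk1, chr13:34002624-34002923, plus strand: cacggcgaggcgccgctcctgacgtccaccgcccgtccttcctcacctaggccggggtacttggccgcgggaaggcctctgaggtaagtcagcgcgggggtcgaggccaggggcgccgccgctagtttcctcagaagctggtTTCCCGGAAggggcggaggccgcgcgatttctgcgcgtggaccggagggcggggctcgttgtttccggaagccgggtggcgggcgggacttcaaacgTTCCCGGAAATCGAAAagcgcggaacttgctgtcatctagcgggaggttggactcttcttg

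In Cflar the capitals mark the response element core, here on the opposite strand, from position 7 to 16 after the start. In Casp8 they mark the pattern with the 1-base gap at -109 to -101, in a window that belongs to a start inside the gene. In Ripk1 they mark a gamma-activated site at -108 to -100, another at -11 to -3 and a response element core at -5 to 5, the last 2 of which overlap by 3 bases. The window of Mlkl held none of the 3 patterns, nor did those of Ripk3 and Fadd or the other window of Ripk1. The member with the most matches was thus not called, and the called Mlkl had none of these letters in this window. A match is a description of the letters and not a measured binding site.

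Partner genes of the pathway were read in 5 lists, by their role as inputs, checkpoints, regulators, interferon arm or downstream partners. The list of Z-RNA and interferon genes had the most calls. Of its 10 genes, 5 were called higher, against 2.46% of all tested genes, and none lower. The median log2 fold change of this list was 1.06 against -0.03 for all tested genes. Adar, which encodes the Z-RNA binding editor ADAR1, rose from 40.3 ± 4.38 to 163 ± 39.9 CPM (SD, n = 4 each), with a log2 fold change of 2.02 and an adjusted p of 9.62e-04 in edgeR's quasi-likelihood test. Eif2ak2, which encodes the double-stranded RNA sensor kinase PKR, rose from 53.1 ± 4.55 to 321 ± 89.0 CPM (log2 fold change 2.59, adjusted p = 6.65e-04 in edgeR's quasi-likelihood test). Stat2, a transcription factor of type I interferon signaling, rose from 102 ± 11.9 to 517 ± 81.3 CPM (log2 fold change 2.34, adjusted p = 4.99e-04 in edgeR's quasi-likelihood test). Its DNA-binding partner Irf9, which falls outside the naming rule and was named after its value was seen, rose 2.4-fold. The receptor chains Ifnar1 and Ifnar2 and the kinases Jak1 and Tyk2 were the genes of the arm with log2 fold changes between -0.14 and 0.07, while Irf1 had 0.87 (adjusted p = 0.0939 in edgeR's quasi-likelihood test). Irf1 was called by edgeR's exact test (adjusted p = 0.034) and by the DESeq2 Wald test (adjusted p = 0.0129). Receptors and kinases of this arm were thus not called, whereas Stat2, Irf9 and both of its RNA-binding proteins were.

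Of 9 death receptor and TLR inputs, 2 (22.2%) were called higher, against 2.46% of all tested genes, and none lower. The median log2 fold change was 0.43. Tnfsf10, which encodes the death ligand TRAIL, had 9.12, 18.1, 23.4 and 4.4 CPM in Control replicates 1, 3, 4 and 5 and 71.8, 270.2, 69.2 and 95.6 CPM in IMQNP replicates 1 to 4. Its log2 fold change of 3.20 with a standard error of 0.62 (adjusted p = 0.0267 in edgeR's quasi-likelihood test) was the largest of this list. Tlr3, the endosomal receptor of double-stranded RNA, had 31.8, 31.9, 25.9 and 14.4 CPM in Control and 105, 307, 125 and 184 CPM in IMQNP in the same order, a log2 fold change of 2.79 with a standard error of 0.39 (adjusted p = 0.00522 in edgeR's quasi-likelihood test). In both genes the groups did not overlap and IMQNP replicate 2 was the highest tumor. Only 1 of the 2 was called when Control replicate 1, Control replicate 3 or IMQNP replicate 4 was left out. The adaptor Ticam1, through which TLR3 reaches RIPK3, was not called (log2 fold change -0.09). Fas had 7.15 ± 3.08 CPM in Control and 34.9 ± 34.5 CPM in IMQNP (SD, n = 4 each) and was not called (log2 fold change 2.28, adjusted p = 0.11 in edgeR's quasi-likelihood test). It was called by edgeR's exact test (adjusted p = 0.00961), by the DESeq2 Wald test (adjusted p = 0.00235) and by edgeR's quasi-likelihood test without a filter on low counts (adjusted p = 0.0147). Without IMQNP replicate 2 its log2 fold change was 1.28 and it was not called.

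The RIPK1 checkpoint list holds adaptors, ubiquitin ligases, deubiquitinases and kinases that bear on whether RIPK1 signals survival or death. Of its 20 genes, 1 (5.0%) was called higher, near the 2.46% of all tested genes, and none lower, with a median log2 fold change of 0.20. Rnf31, which encodes the linear ubiquitin ligase HOIP, had 28.6, 29.2, 27.3 and 39.6 CPM in Control replicates 1, 3, 4 and 5 and 90.3, 126, 78.8 and 83.9 CPM in IMQNP replicates 1 to 4. All IMQNP tumors lay well above the Control range, and the log2 fold change was 1.60 (standard error 0.20, adjusted p = 0.00327 in edgeR's quasi-likelihood test). Its partners in the same ligase complex were not called, with log2 fold changes of 0.47 for Rbck1 and -0.05 for Sharpin. In 5 of the 20 genes every IMQNP tumor lay above every Control tumor, against 6.00% of all tested genes, and besides Rnf31 these were Birc2, Tnfaip3, Tbk1 and Ikbke, with log2 fold changes of 0.98 to 1.45. The exact test of edgeR called 3 and the DESeq2 Wald test 4 of the 20.

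Downstream, none of the 14 apoptosis and pyroptosis partners was called in edgeR's quasi-likelihood test. Of these 14, however, 6 had an unadjusted p under 0.05, a larger share than the 2078 or 13.0% of all 15998 tested genes. In 4 of the 14, Bid, Apaf1, Casp1 and Gsdmd, every IMQNP tumor lay above every Control tumor, against 6.00% of all tested genes. The exact test of edgeR called 1 (Casp1) and the DESeq2 Wald test 2 (Casp1 and Gsdmd), while limma voom called 0. The median log2 fold change of this list was 0.38, and the values ran from -0.44 for Casp9, the initiator caspase of the mitochondrial route, to 1.18 for Pycard, the inflammasome adaptor. Of 14 regulators of RIPK3 and MLKL, 1 (7.14%) was called higher, beside 2.46% of all tested genes, and none lower, with a median of 0.01. Peli1, an E3 ligase that marks RIPK3 for degradation, rose from 42.0 ± 8.44 to 122 ± 44.3 CPM (SD, n = 4 each), with a log2 fold change of 1.54 and an adjusted p of 0.0153 in edgeR's quasi-likelihood test. This count became 0 without Control replicate 1 and 2 without Control replicate 5. The chaperones, the phosphatase Ppm1b, the inositol phosphate kinases, the membrane repair genes of the ESCRT machinery and the flotillins of the list had log2 fold changes of -0.28 to 0.77 and were not called.

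**Figure D5:**
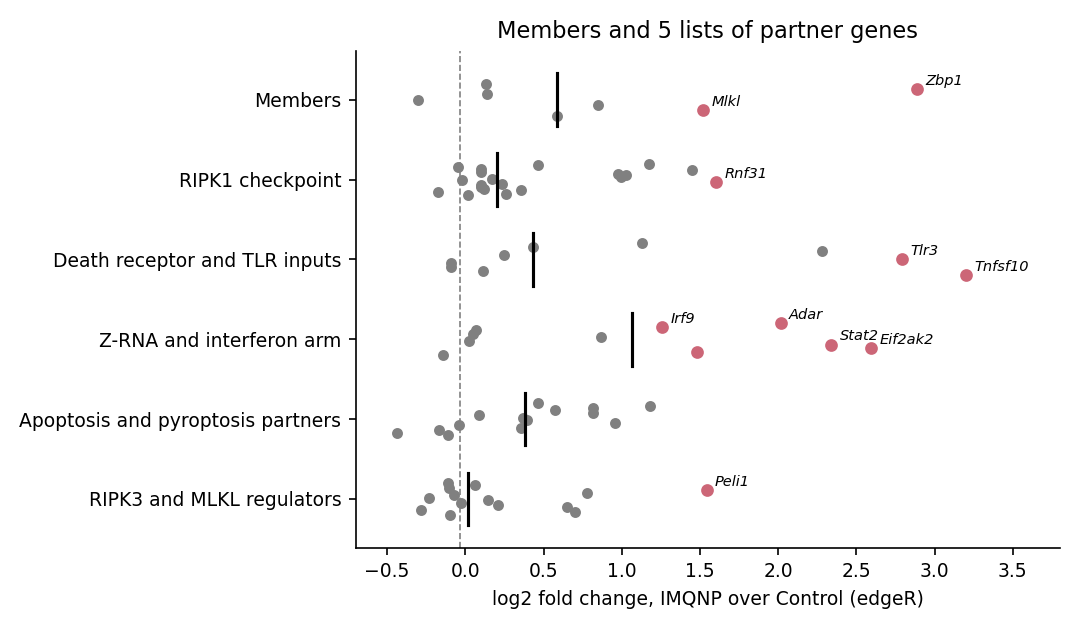
Log2 fold change, IMQNP over Control, of the 7 members and of the genes of 5 partner lists, with genes called at an adjusted p under 0.05 in red (those described in the text named), others in grey, list medians as black bars and the median of all tested genes as a dashed line. The interferon arm had 5 of 10 genes in red and a median of 1.06, the other lists 0 to 2 genes.

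The genes whose pattern over the 8 tumors was most like that of a called member were ranked by Pearson's r of log2 CPM, as a description in which the points share libraries and the group difference. Nearest to Zbp1 were Gm7609 (r = 0.999), Trim30d, Slfn10-ps, Samhd1 and Cxcl11, the last 4 with r of 0.997 to 0.998, and the log2 fold changes of all 5 were 2.04 to 5.09. Samhd1 encodes a dNTP hydrolase and Cxcl11 a chemokine of T cells. Nearest to Mlkl was Casp4, which encodes the mouse caspase-11 that senses lipopolysaccharide (r = 0.999). Casp4 had 36.1, 38.4, 26.9 and 38.4 CPM in Control replicates 1, 3, 4 and 5 and 91.6, 132, 82.8 and 88.4 CPM in IMQNP replicates 1 to 4, so that its low Control tumor and its high IMQNP tumor were those of Mlkl. The next were Csrnp1, Irf7 and Ifi206 (r of 0.991 to 0.994, log2 fold changes of 1.79 to 5.18). Zbp1 and Mlkl had an r of 0.951 with each other, and Ripk3 had 0.181 with Zbp1 and 0.108 with Mlkl.

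Because the tumors are mixtures, markers of other cell types were read beside these results. None of the 34 tested markers was called in edgeR's quasi-likelihood test, and in every one of 6 lists the summed levels of the groups overlapped. Myeloid markers summed to 1136 to 1869 CPM in Control and 763 to 1712 CPM in IMQNP, lymphoid markers to 42.5 to 91.2 and 47.2 to 130.2 CPM, neutrophil markers to 15.6 to 59.0 and 30.7 to 142 CPM, plasmacytoid dendritic cell markers to 3.36 to 6.32 and 2.21 to 7.62 CPM, and endothelial markers to 107.5 to 179 and 90.3 to 143 CPM. No marker was at 0 in any tumor. All 5 neutrophil markers had a positive log2 fold change, with a median of 1.16. A negative one was found in 5 of 7 myeloid and 4 of 5 endothelial markers, with medians of -0.28 and -0.16. The hepatocyte, lymphoid and plasmacytoid dendritic lists were split nearly evenly between the 2 signs. In the neutrophil marker Retnlg (log2 fold change 2.48, adjusted p = 0.291 in edgeR's quasi-likelihood test), every IMQNP tumor lay above every Control tumor, a pattern of 6.00% of all tested genes. Retnlg was scarce, however, with a mean of 0.767 CPM in Control. Its lowest Control tumor, at 0.043 CPM, was under the level of 3 counts, so this fold change rests in part on values near the limit. Of the 34 tested markers, 4 had an unadjusted p under 0.05 in edgeR's quasi-likelihood test, as did 13.0% of all tested genes. The exact test of edgeR and the DESeq2 Wald test each called 1 (Clec4f, the Kupffer cell lectin, with a log2 fold change of -0.96), and limma voom called 0. In whole tumors fewer cells of a type and less RNA per cell cannot be told apart, and the part of the cell mixture in the changes of Zbp1 and Mlkl was not tested.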

How the data were processed

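The deposited table of counts held whole-number reads per gene in 8 tumors, which the authors left without normalization, and these were the input of every test. The deposited signal values, which the authors made by dividing gene counts by a DESeq2 size factor of each tumor, gave the symbols, joined by Ensembl identifier. The study's methods name TopHat and HTSeq, whereas the submitters' processing notes name Trimmomatic 0.38, HISAT2 2.1.0 and featureCounts 2.0.0, and the genome build and strand setting are not given in the sources used here. All 55536 identifiers are in GENCODE M21 (GRCm38), which gave coordinates and exon lengths.

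Groups were compared in R 4.3.3 with edgeR 4.0.16 (TMM, default filter on low counts, quasi-likelihood test, Benjamini-Hochberg adjustment), with DESeq2 1.42.0 and limma 3.58.1 as alternatives. Log2 CPM for likeness used a prior count of 2. No batch is given, nor the animal of each tumor, so p-values measure the spread between these samples, which may in part be technical. The tests were tried on simulated counts with known changes. The members and lists were chosen with earlier results of these data known. The rule for named genes took all members, up to 4 called genes per list by size of change, and the 5 genes most like Zbp1 and Mlkl. Some of the genes that it selects are not reported here. Alternatives comprised other normalizations, filters, tests and call rules, a term for the replicate number, and each tumor left out. Outliers within groups of 4 were looked for by Dixon's test.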

Additional observations from a re-analysis of the deposited data

Results flagged for a closer look

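Among 22 groups of 4 values checked for members and ratios, 2 held a tumor far from the other 3 by Dixon's test, which flags about 1 in 20 groups by chance. Zbp1 was at 589.8 CPM in IMQNP replicate 2, with a gap to the nearest tumor of 0.836 of the range of the group. Mlkl was at 33.7 CPM in Control replicate 4, with a gap of 0.847 of the range. IMQNP replicate 2 also had the highest summed hepatocyte markers of its group, at 32670 CPM, and Control replicate 4 those of its group, at 32240 CPM. The part of the liver content of these tumors in either value was not tested. Without IMQNP replicate 2 the log2 fold change of Zbp1 was 2.42, and without Control replicate 4 that of Mlkl was 1.40, both still called in edgeR's quasi-likelihood test.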

How the results depend on the processing

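Of 263 values recomputed under alternatives, 236 kept their direction and their side of the threshold, or for counts stayed within 1.5 times. The calls of Zbp1 and Mlkl held under every alternative run, with log2 fold changes of 2.32 to 3.11 and 1.33 to 1.59. Ripk1 turned to -0.0214 with library totals only and to -0.0439 with the replicate block, and ranged from -0.0082 to 0.24 with a tumor left out, and Ripk3 likewise to -0.022, -0.0878 and -0.0703 to 0.32. Scaling by library totals only moved the median of all genes by -0.14. Cflar was called by edgeR's exact test (0.85) and by the DESeq2 Wald test (0.86), with 0.71 to 0.98 over tumors left out. The RIPK1 checkpoint had 2 calls without a filter, 3 by the exact test, 4 by the Wald test and 2 with the block. Downstream partners had 1 call by the exact test and 2 by the Wald test. Regulators had 2 by the Wald test, 3 with the block and 0 to 2 over tumors left out (0 without Control replicate 1, 2 without Control replicate 5). Inputs had 3 without a filter, by the exact test, by the Wald test and with the block, and 1 to 2 over tumors left out, with 1 without Control replicate 1, Control replicate 3 or IMQNP replicate 4. The Mlkl over Ripk3 difference was 1.15 to 1.64 over tumors left out, the lowest without Control replicate 4 (exact permutation p = 0.0571), and Ripk3 over Ripk1 was -0.20 to 0.15. Over all genes, 394 were called higher and 35 lower, against 627 and 110 by the exact test, 712 and 170 by the Wald test, 343 and 61 with library totals only, 510 and 64 without a filter, 378 and 22 by limma voom, and 198 to 398 and 8 to 41 with a tumor left out. Higher genes were 91.8% of calls and 80.7% by the Wald test. The replicate block gave 519 and 302, of which 63.2% higher. Number 2 occurs only in IMQNP and number 5 only in Control, so the group differences of this fit rest on the tumors numbered 1, 3 and 4. They are thus not those of all 8 tumors. Deviations of same-numbered tumors correlated at 0.294, -0.268 and -0.316 for numbers 1, 3 and 4. So few values cannot decide whether the numbers pair the tumors. With the block the marker Siglech was called, with a log2 fold change of -1.11 in the fit without it.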
